A study of Mus musculus with 2 samples.

Results

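The cytosolic ribosome of mouse cells is built from proteins of a large and a small subunit, and most of these proteins are encoded by a single active gene that is transcribed at a high level in every cell. The genes described here were the rows of the allelic expression files whose symbol is Rpl or Rps followed by a number, together with Rplp0, Rplp1, Rplp2 and Rpsa. Kinases of the Rps6k family, the binding protein gene Rps19bp1, mitochondrial ribosomal proteins and rows named as pseudogenes were left out. This gave 84 of 22711 listed genes, of which 49 belong to the large subunit, 32 to the small subunit and 3 to the stalk of the large subunit.

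The libraries came from immortal mouse embryonic fibroblasts, which are cultured connective tissue cells, carrying a C57BL/6N (B6) and a PWK/PhJ (PWK) genome. The line B6-Xi (strain label PWK/PhJ X C57BL/6N) carries its inactive X chromosome, or Xi, on the B6 side, and the line PWK-Xi (C57BL/6N X PWK/PhJ) on the PWK side. Both lines grew in the same serum-containing medium, and polyadenylated RNA was sequenced after Smart-seq2, a full-length protocol that starts from oligo-dT priming. There was 1 library per line, so nothing below has a replicate check or a test, and a difference between the lines is a difference between 2 libraries. Values are FPKM, fragments scaled by gene length and library size, given separately for the B6 and the PWK allele. The B6 share is the B6 value as a percentage of the sum of both alleles.

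In B6-Xi 10127 listed genes were above 0 and in PWK-Xi 12907 were, and the read depth was unknown. Of 11 fibroblast markers, 10 were above 0 in at least 1 line and Vim was listed at 0 in both. Their summed level was 13332 FPKM (B6-Xi) and 2979 FPKM (PWK-Xi), most of it from S100a4 (13006 and 2321 FPKM), and Col1a2 stood at 134.3 and 69.2 FPKM. The markers did not move together. Of 9 above 0 in both lines and at 5 FPKM in one, 5 were lower in PWK-Xi. At least 2-fold lower were 2, against 5.95% of all such genes. At least 2-fold higher were 3, against 14.1%, among them Dcn (79.1 and 456.4 FPKM) and Pdgfra (7.13 and 28.2 FPKM). Summed markers of epithelial, endothelial and immune cells stayed between 0 and 3.55 FPKM in each line. Of 3 pluripotency markers, Pou5f1 reached 15.1 FPKM in PWK-Xi and was listed at 0 in B6-Xi, Nanog had 0 and 0.36 FPKM, and Zfp42 was at 0 in both. Whether these cells or genes had a part in the differences below was not tested.

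Ribosomal protein genes have a trait that matters for allele assignment: their abundant messenger RNAs were copied back into the genome many times in evolution, which left intron-less processed pseudogenes. Cytosolic ribosomal protein transcripts also start with a tract of C and T bases, the 5′ terminal oligopyrimidine (TOP) motif, through which the mTOR pathway controls their translation. The comparisons below show first how close a copy can be to its parent gene. They use coding sequences of GENCODE M21 transcripts (GRCm38). Rpl30 lies on chromosome 15 and its copy Gm12191 on chromosome 11, and over 348 coding bases they differ at 1 base. Rpl21 (chromosome 5) differs from the copy Gm10240 (chromosome 15) at 2 of 483 bases. Rpl7a (chromosome 2) differs from Rpl7a-ps11 (chromosome X) at 2 of 801 bases, and these last 2 pairs are shown as stretches of 120 bases, in lower case with the 1 differing base of each stretch in capitals.
Rpl21, coding bases 276 to 395: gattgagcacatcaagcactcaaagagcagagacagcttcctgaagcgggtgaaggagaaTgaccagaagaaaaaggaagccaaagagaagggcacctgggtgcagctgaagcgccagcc
Gm10240: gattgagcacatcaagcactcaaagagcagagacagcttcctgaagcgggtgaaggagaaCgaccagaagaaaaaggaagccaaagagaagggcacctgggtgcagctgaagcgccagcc
Rpl7a, coding bases 126 to 245: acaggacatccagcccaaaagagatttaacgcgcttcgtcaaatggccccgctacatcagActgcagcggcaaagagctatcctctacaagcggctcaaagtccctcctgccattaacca
Rpl7a-ps11: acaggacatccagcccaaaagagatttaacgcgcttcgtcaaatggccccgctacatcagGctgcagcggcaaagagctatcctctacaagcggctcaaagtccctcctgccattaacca

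A paralogue kept as a separate functional gene can be less like its parent, as in the pair below. The other paralogues were not compared in this way. Rps27 (chromosome 3) and Rps27l (chromosome 9) have coding sequences of 255 bases that differ at 61 bases, so that 76.1% were identical. The first 120 bases hold 28 of these differences, shown in capitals.
Rps27: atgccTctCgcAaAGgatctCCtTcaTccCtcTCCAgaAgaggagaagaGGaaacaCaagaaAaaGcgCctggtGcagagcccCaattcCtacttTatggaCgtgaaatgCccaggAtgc
Rps27l: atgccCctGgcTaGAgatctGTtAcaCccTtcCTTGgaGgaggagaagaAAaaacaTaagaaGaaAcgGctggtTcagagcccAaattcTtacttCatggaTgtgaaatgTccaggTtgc

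The start of the transcript was read from RefSeq promoter entries (GRCm38.p6), which held 64 of the 84 genes. A run of at least 8 C or T bases that opens with C was searched on the coding strand, from 10 bases before to 20 bases from the annotated start. It was present for 24 of these 64 genes (37.5%), against 10.1% of 27025 genes with an entry and 5 of 69 mitochondrial ribosomal protein genes (7.25%). An annotated start may lie off the true cap site, so a window without the run says nothing about the transcript. The 4 windows below belong to genes described later, with the run in capitals.
Rplp2, chr7:141447641.0-141447670.0, plus strand: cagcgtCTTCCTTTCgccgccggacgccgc
Rps6, chr4:86857348.0-86857377.0, minus strand: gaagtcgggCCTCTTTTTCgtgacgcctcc
Rps27, chr3:90213629.0-90213658.0, minus strand: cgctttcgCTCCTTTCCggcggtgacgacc
Rpl7a, chr2:26910797.0-26910826.0, plus strand: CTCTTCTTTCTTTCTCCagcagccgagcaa

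The first question was how much of the family the allelic files quantify. Of the 84 genes, 62 were above 0 in both lines, 4 only in PWK-Xi and none only in B6-Xi, and 18 were listed at 0 in both lines. More genes above 0 in PWK-Xi than in B6-Xi is not particular to the family. Over all 22711 listed genes the numbers were 12907 and 10127. Of all listed genes 42.2% were at 0 in both lines, and of 76 mitochondrial ribosomal protein genes 7 were (9.21%). The 18 include genes that every ribosome needs. In the large subunit they include Rpl8, Rpl9, Rpl11, Rpl18, Rpl26, Rpl29, Rpl35, Rpl36 and Rpl38, together with the copies Rpl36al and Rpl3l, the latter a gene of heart and skeletal muscle. In the small subunit they include Rps7, Rps13, Rps23, Rps28 and Rps27a, which encodes a ribosomal protein fused to ubiquitin. For the core proteins among them, such as those of Rpl8, Rpl11 and Rps13, a value of 0 is read here as no allelic value and not as absence of the RNA. For Rpl3l and Rpl36al absence of the RNA and lack of an allelic value cannot be told apart.

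The genes at 0 did not stand out in length or in the number of pseudogene copies, but they did in very close copies. Their coding sequences had a median of 463.5 bases (210 to 1224), and those of the 62 genes above 0 had 457.5 bases (78 to 1260). The median transcript had 812 bases against 896.5 bases. The genes at 0 had a median of 7.5 annotated pseudogene copies (0 to 58) and the others 8 (0 to 76). A copy was counted when it matched at least 80% of the coding sequence at 90% identity or more. Copies of at least 99% identity were annotated for a larger part of the genes at 0 than of the genes above 0. Whether such copies had a part in the values of 0 was not tested. Rpl8 had no such copy and was still listed at 0, as was Rpl29 with 58 copies. How many B6 and PWK sequence differences each transcript holds was not tested. Tpt1, an abundant TOP transcript outside the family, was also at 0 in both lines.

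Where values were given they were high. Levels are sums of allelic values, so an order of genes by level need not be that of their whole RNA. The 62 genes above 0 in both lines had a median of 942.5 FPKM (B6-Xi) and 701.4 FPKM (PWK-Xi). All 84 genes together held 26.1% of the summed FPKM of all genes in B6-Xi (74383 of 285397) and 19.0% in PWK-Xi (48704 of 256196). They made up 10 of the 20 most abundant genes in B6-Xi and 7 of 20 in PWK-Xi. At 100 FPKM or more lay 59 of the 62 genes in B6-Xi and 58 in PWK-Xi. Summed over a culture, fewer cells of a type and less RNA per cell cannot be told apart.

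**Figure D1:**
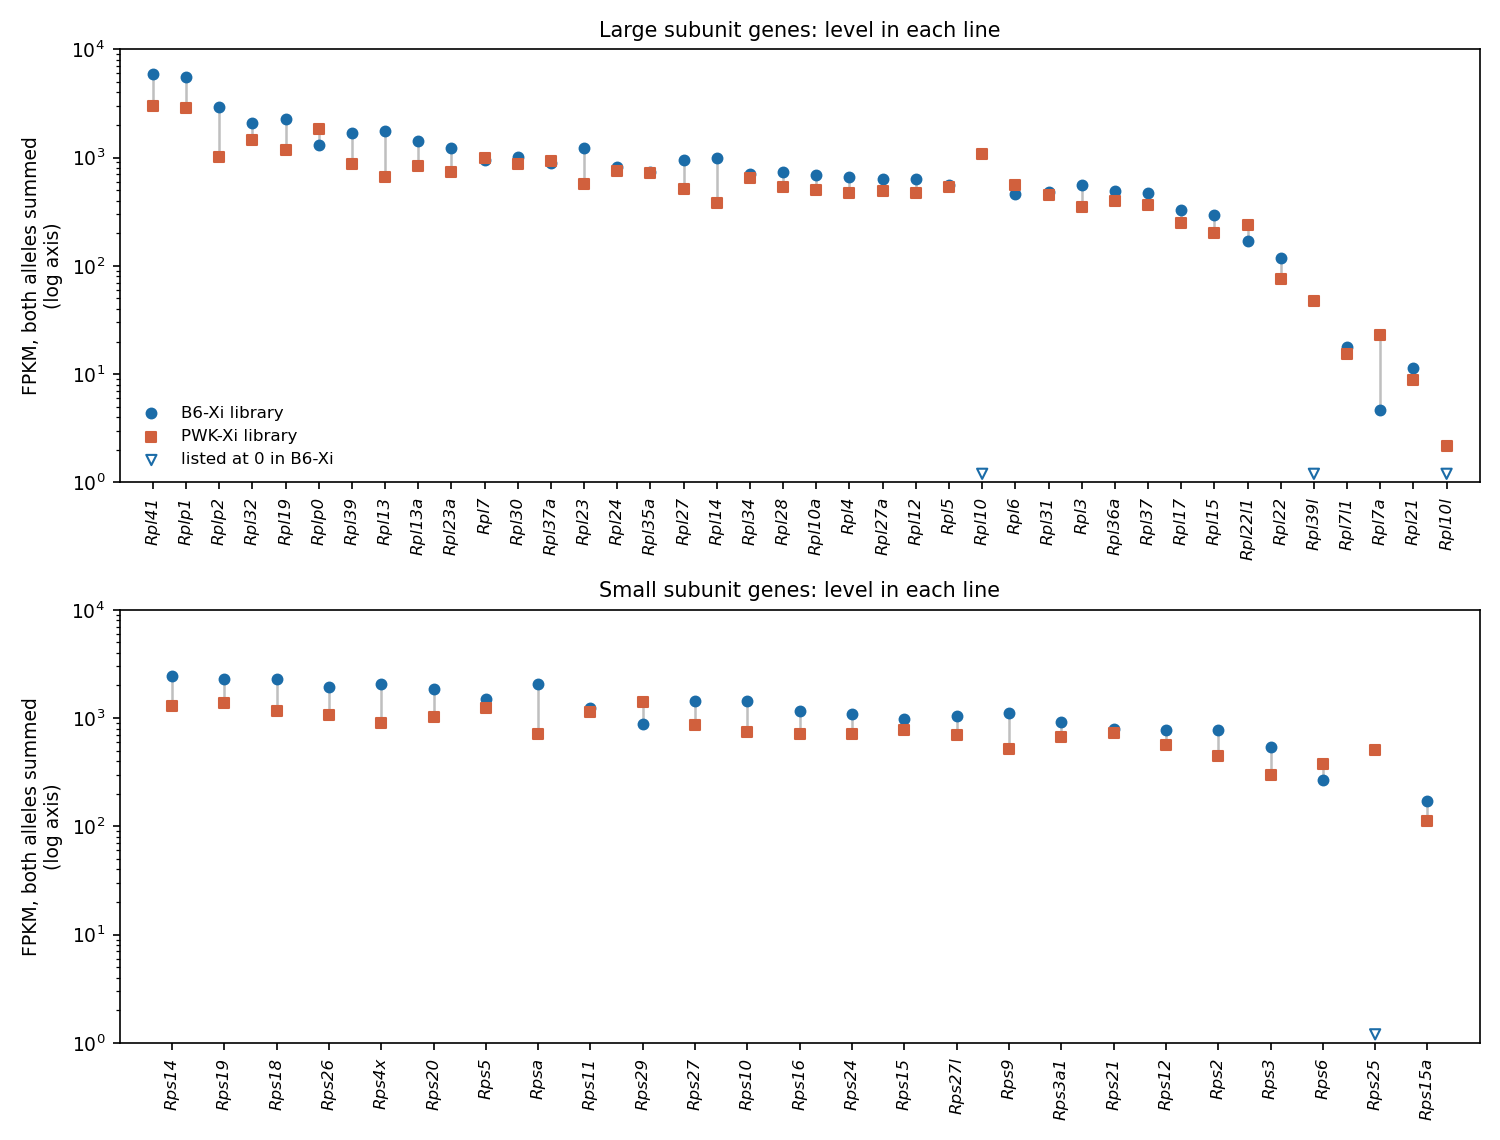
Levels of ribosomal protein genes above 0 in at least 1 line (1 small-subunit gene is not drawn), in FPKM on a log axis, for the B6-Xi library (circles) and the PWK-Xi library (squares), with large-subunit and stalk genes in the upper panel and small-subunit genes in the lower. Most circles lie above their squares, Rpl21, Rpl7a, Rpl7l1 and Rpl10l fall far below most other genes, and open triangles mark 4 genes listed at 0 in B6-Xi.

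The highest gene was Rpl41, which encodes the smallest ribosomal protein, with 5891 FPKM (B6-Xi) and 2990.4 FPKM (PWK-Xi). The stalk, which recruits translation factors to the ribosome, came next with Rplp1 (5582 and 2880.2 FPKM) and Rplp2 (2929 and 1012 FPKM). Its base protein gene Rplp0 had 1299 and 1824 FPKM, the only stalk gene that was higher in PWK-Xi. In the small subunit Rps14 (2465 and 1292 FPKM), Rps19 (2302 and 1369.5 FPKM) and Rps18 (2292 and 1150.2 FPKM) were the most abundant. In the large subunit they were followed by Rpl32 (2086 and 1453 FPKM) and Rpl19 (2271 and 1172 FPKM). Each of these 8 most abundant genes, counted by the mean of the lines, was higher in B6-Xi.

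Small-subunit genes, 25 in number, had medians of 1169 FPKM (B6-Xi) and 738.2 FPKM (PWK-Xi). Large-subunit genes had 696.4 and 521.0 FPKM over 34 genes. The lowest genes were Rpl7a (4.67 and 22.8 FPKM), Rpl21 (11.4 and 8.87 FPKM) and Rpl7l1 (17.95 and 15.3 FPKM). Rpl7l1 is a distant relative of Rpl7 that acts in ribosome assembly. Rpl7a and Rpl21, by contrast, encode core proteins that each ribosome holds.

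The number of copies in the genome was set beside these levels. Over the 84 genes 973 pseudogene copies were annotated, and 78 genes had at least 1. Rpl21 had the most, 76, and Rpl7a was second with 74. Both were also the autosomal genes of the family whose signal came from B6 by more than 90% in each line, for Rpl7a with under 5 FPKM in B6-Xi. For Rpl21, B6 and PWK had 10.8 and 0.561 FPKM in B6-Xi and 8.28 and 0.59 FPKM in PWK-Xi, so B6 shares were 95.1% and 93.4%. For Rpl7a they were 4.67 and 0 FPKM in B6-Xi and 21.6 and 1.21 FPKM in PWK-Xi, shares of 100% and 94.7%. Genes near each of them had median shares between 33.2% and 65.2%.

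The next genes by number of copies did not share this pattern. Rpl29, with 58, was listed at 0. Rpl17, with 50, had 328.3 and 249.9 FPKM and B6 shares of 69.8% and 65.2%. Rps2, with 47, had 772.4 and 445.6 FPKM and shares of 56.8% and 55.4%. Across the 62 genes, Spearman's correlation of the number of copies was -0.20 with the mean level, and across the 59 autosomal genes it was 0.14 with the mean B6 share. These are weak relations across genes of the same libraries, given as a description.

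**Figure D2:**
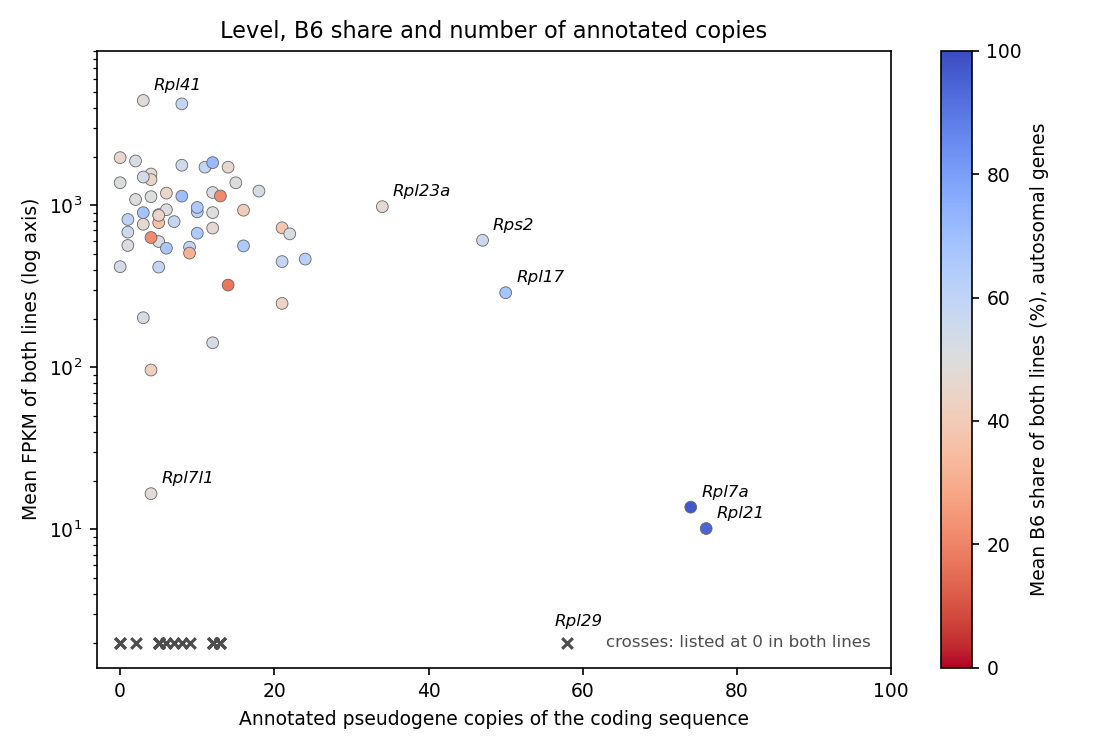
Mean FPKM of both lines (log axis) against the number of annotated pseudogene copies of the coding sequence, for autosomal genes above 0 in both lines, coloured by the mean B6 share, with genes listed at 0 in both lines as crosses along the bottom. Rpl21 and Rpl7a, at 76 and 74 copies, are low and almost all B6, while genes at 0 span 0 to 58 copies.

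Some copies are rows of the files themselves. Of 19 such rows, 7 had at least 5 FPKM in both lines and 6 were at 0 in both. Gm12191, the near-identical copy of Rpl30, had 1275 FPKM (B6-Xi) and 1100.3 FPKM (PWK-Xi), all from B6, and ranked 34 and 28 among all genes. Rpl30 itself had 1002 and 865.1 FPKM with B6 shares of 36.8% and 45.9%, while its neighbours had median shares of 50.4% and 50.2%. With both rows added, the B6 share was 72.2% and 76.2%. Rpl31-ps12 was 100% B6 in both lines (18.5 and 10.6 FPKM), and Rps15a-ps6 was 92.3% and 92.1% B6 (40.4 and 20.2 FPKM). Thus 3 of the 7 rows were at least 90% B6 in both lines. Of all autosomal genes with 5 FPKM in both lines, 0.941% were at least 90% B6 in both or at most 10% in both. The other 4 were not: BC004004 (50.8% and 47.6%), which contains a sequence like Rpl21, Rps19-ps3 (50% and 70.6%), Gm6654 (0% and 2.5%) and Wdr89 (0% and 34.1%). Of these, Gm6654 came almost wholly from PWK in both lines. Reads of a gene and of such a copy could not be separated here, so the levels and shares of these pairs are uncertain.

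The next comparison concerned the balance of the alleles, using genes of 5 FPKM or more in each line. The 58 autosomal ribosomal protein genes were close to balanced in both lines. The B6 share had a median of 51.3% in B6-Xi, with quartiles of 47.2% and 58.0%, and of 52.9% in PWK-Xi, with quartiles of 45.2% and 59.3%. All 3827 autosomal genes had medians of 50.0% and 52.4%. Shares between 40% and 60% were held by 38 of the 58 genes in B6-Xi, against 48.4% of autosomal genes, and by 39 in PWK-Xi, against 61.4%. Of 232 other autosomal genes of 100 FPKM or more, 59.1% and 66.4% lay in this range, so the contrast was smaller against genes of high level.

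Shares also differed little between the lines. The difference was at most 10 points for 42 of 58 genes, against 45.3% of autosomal genes and 56.5% of the other abundant genes. The median difference was 5.01 points, against 11.4 and 8.36 points. Mitochondrial ribosomal protein genes, which encode a separate ribosome and are less abundant, had a median difference of 12.3 points over 67 genes. Some shares were simple ratios, here meaning within 0.001 points of a fraction of whole numbers no larger than 10. In B6-Xi 6 of the 58 genes had one, against 28.5% of autosomal genes and 11.6% of the other abundant genes. Shares of 0% and 100% count as simple ratios, and Rpl5, Rps6, Rps27 and Rps29 were among the 6 only through these. In PWK-Xi 2 had one, against 4.15% and 3.02%.

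**Figure D3:**
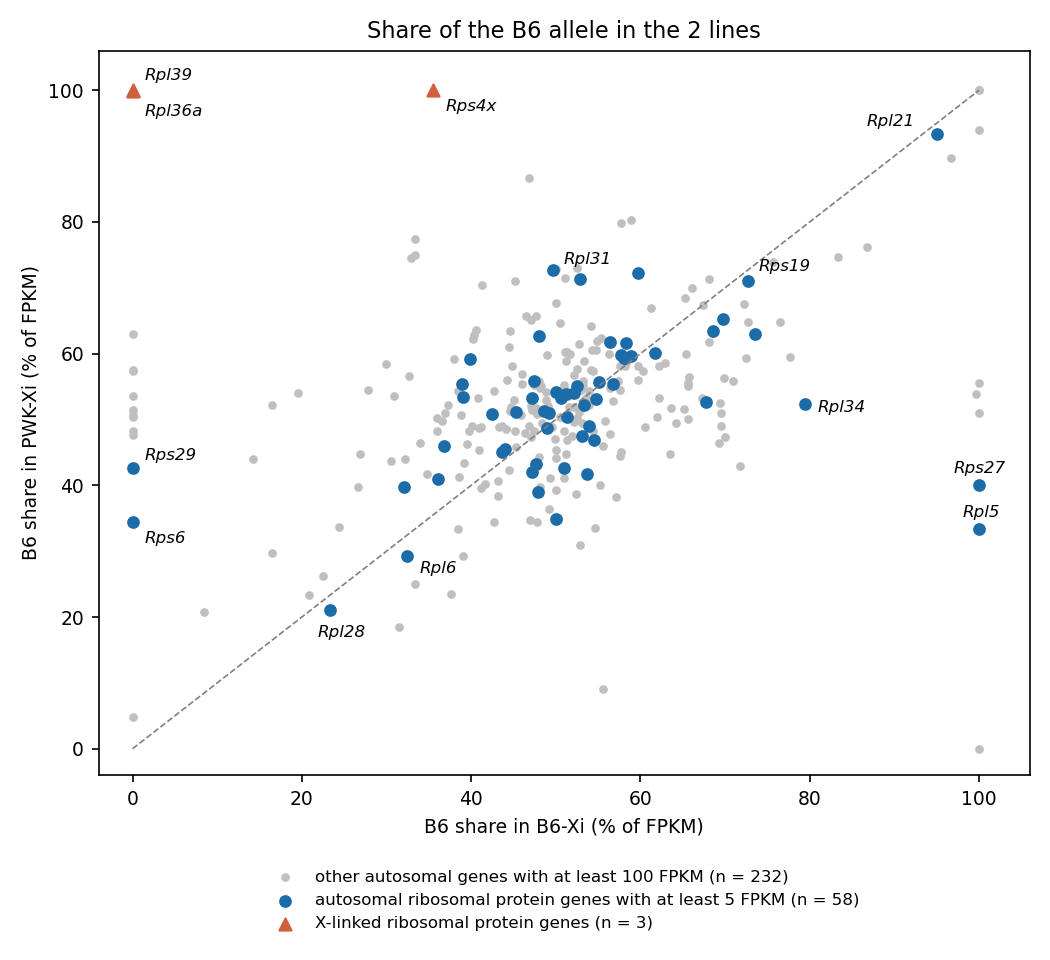
B6 share in PWK-Xi (vertical axis) against B6 share in B6-Xi (horizontal axis), in percent of FPKM, for 58 autosomal and 3 X-linked ribosomal protein genes of 5 FPKM or more, over 232 other autosomal genes of 100 FPKM or more, with the dashed line marking equal shares. Most ribosomal protein genes gather near the centre, Rps29 and Rps6 lie at 0% and Rpl5 and Rps27 at 100% on the horizontal axis, and the X-linked genes at the top.

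Few genes came from a single allele, taken as a B6 share of at most 10% or at least 90%. Of 58 autosomal genes 5 did so in B6-Xi, against 8.94% of autosomal genes, and 1 (Rpl21) in PWK-Xi, against 1.67%. Both counts are near the background, which includes the genes of chromosome 12 described below. From the same allele in both lines was 1 of 58 genes, Rpl21, against 0.941%. In B6-Xi 2 of the 5 followed the genes around them. Rps29, on chromosome 12, had 0 FPKM from B6 and 875.2 FPKM from PWK in B6-Xi, and 601.6 and 809.0 FPKM in PWK-Xi. The median B6 share of its 20 nearest measured genes was 0% and 52.5%. Over the whole of chromosome 12, 97 other genes had medians of 0% and 51.2%. Rps6, whose protein is the classic substrate of S6 kinases, lies on chromosome 4 and had 0 and 266.8 FPKM in B6-Xi, with 129.8 and 247.9 FPKM in PWK-Xi. Its neighbours had medians of 0% and 48.3%, and 230 other genes of the whole chromosome had 44.1% and 51.4%.

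The other members of chromosome 12 gave no share in B6-Xi. Rps7 and Rpl36al were listed at 0 in both lines. Rpl10l, a retrocopy of Rpl10 known from testis, was at 0 for B6-Xi and at 2.17 FPKM for PWK-Xi.

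Rpl5 and Rps27 did not follow their neighbours in B6-Xi. Rpl5, which with Rpl11 and 5S ribosomal RNA forms a complex that binds the p53 regulator Mdm2, had 554.5 FPKM from B6 and 0 from PWK in B6-Xi. In PWK-Xi it had 178.0 and 355.9 FPKM, a B6 share of 33.3%. Its neighbours had median shares of 44.2% and 35.7%, so it lay 55.8 points above them in B6-Xi and -2.39 points from them in PWK-Xi. Rps27 had 1425.5 FPKM from B6 and 0 from PWK in B6-Xi, and 342.2 and 513.3 FPKM in PWK-Xi. Its share was 100% and 40%, with neighbours at 51.1% and 55.2%. These were the only autosomal genes of the family whose shares differed by at least 50 points, 2 of 58, against 4.31% of autosomal genes.

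For both genes the shares were simple ratios in PWK-Xi, 1 in 3 for Rpl5 and 2 in 5 for Rps27. In B6-Xi they counted as such only because they were 100%. Outside the 58 genes, Rps25 also had one. It was listed at 0 for B6-Xi, and for PWK-Xi its B6 allele stood at 203.6 FPKM and its PWK allele at 305.3 FPKM, again 2 in 5. In B6-Xi the alleles of Rpl22 (58.9 FPKM each) and Rps14 (1233 FPKM each) were exactly equal. No read number is known behind these shares. Rps27 also has an annotated coding copy identical over its coding sequence, Rps27rt, and Rpl5 has a pseudogene copy identical over its coding sequence. Such copies are not particular to these genes. Identical pseudogene copies are annotated for Rps6 and Rps29 (both 0% B6 in B6-Xi), and for Rpl10a (50.6%), Rpl13 (47.4%) and Rps16 (47.2%), among others. Rps12 (54.0%) also has an identical coding copy.

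Some autosomal genes leaned to the same strain in both lines, in numbers near the background. More than 60% B6 in both lines were Rpl17, Rpl21, Rpl23, Rpl27a, Rps9 and Rps19, 6 of 58, against 9.3% of autosomal genes. Less than 40% were Rpl6, Rpl24, Rpl28 and Rps6, 4 of 58, against 6.25%. Of the autosomal genes of the family with signal from both alleles, Rpl28 had the lowest share in each line, with 170.3 FPKM from B6 and 559.3 FPKM from PWK in B6-Xi, and 113.0 and 424.1 FPKM in PWK-Xi. Its shares were 23.3% and 21.04%, and its distance from its neighbours on chromosome 7 was -28.7 and -37.1 points. Rps19, a gene mutated in Diamond-Blackfan anaemia, leaned the other way on the same chromosome. It had 1674 and 628.2 FPKM in B6-Xi and 972.5 and 397.0 FPKM in PWK-Xi, shares of 72.7% and 71.0%, or 20.5 and 17.2 points above its neighbours.

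At least 10 points from the neighbours on the same side in both lines were 5 of 58 genes, Rpl14, Rpl17, Rpl21, Rpl28 and Rps19, against 11.8% of other autosomal genes. On opposite sides was only Rps27, against 3.74%. Pearson's correlation of the distance from the neighbours between the lines was 0.51 over the 58 genes and 0.32 over 3769 other autosomal genes. Both lines share the reference genome and the strain differences of each gene, and the value is a description across genes. Abundant genes were not set apart among the other autosomal genes. Rpl6, Rpl17, Rpl23, Rpl24, Rpl27a, Rpl28 and Rps9 were chosen after their values were seen.

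Shares were also set beside the place in the genome. Over the 58 genes, Pearson's correlation with the median share of the neighbours was 0.58 (B6-Xi) and 0.31 (PWK-Xi), and over 3769 other autosomal genes it was 0.57 and 0.43. These values describe genes of the same libraries, in which nearby members share neighbours. Within 10 points of the median of their neighbours were 45 of the 58 genes in B6-Xi, against 58.3% of other autosomal genes, and 48 in PWK-Xi, against 71.5%. The other autosomal genes here include those of low level, and abundant genes were not set apart. On chromosome 1, where other genes had a median B6 share of 69.9% in PWK-Xi and 50% in B6-Xi, Rpl7, Rpl31 and Rpl37a had 72.3%, 71.4% and 72.7% in PWK-Xi. In B6-Xi they had 59.7%, 52.8% and 49.7%. On chromosome 16, which leaned to PWK in both lines with medians of 33.1% and 41.2%, Rpl24 had 32.04% and 39.7% and Rpl35a had 36.1% and 41.0%. On chromosome 5, with 50% and 36.7%, Rplp0 had 53.7% and 41.7%. The other members there lay farther from their neighbours in B6-Xi: Rpl6 had 32.4% and 29.3% beside neighbours at 51.9% and 37.1%, and Rpl5 and Rpl21 are described above.

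Of the family 4 genes are X-linked, and with the inactive X known they show which copy is active. Rpl39, which lines the exit tunnel of the ribosome, had 1671 FPKM from the active PWK copy and 0 from B6 in B6-Xi. In PWK-Xi it had 864.5 FPKM from the active B6 copy and 0 from PWK. Rpl36a had 486.0 FPKM and 0 from the inactive copy in B6-Xi, and 397.7 and 0.716 FPKM in PWK-Xi, an Xi share of 0.18%. Rpl10, which is added late to the large subunit near the catalytic centre, was listed at 0 for B6-Xi and reached 1076 FPKM, all from the active copy, for PWK-Xi. Rpl10 has 10 annotated pseudogene copies, of which 5 are at least 99% identical.

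Rps4x was the exception among these genes. In PWK-Xi it had 893.0 FPKM from the active and 0.162 FPKM from the inactive copy. In B6-Xi the active PWK copy had 1340 FPKM and the B6 copy 737.3 FPKM, so that 35.5% came from B6. Other X-linked genes of 5 FPKM or more had a median Xi share of 0% in each line, and 5 of 124 were above 10% in B6-Xi. Above 30% in B6-Xi were 3 of the 124, Nono, Pbdc1 and Xist. Taken over the active copy alone, Rps4x was 1.5-fold higher in B6-Xi, against 1.22-fold for Rpl36a and 1.93-fold for Rpl39. Rps4x has 8 annotated pseudogene copies, the closest 98.6% identical over the coding sequence. Rpl39 has 18, the closest 98.7% identical, and showed no signal from the inactive copy in either line. Reads from such copies could not be separated, and their part in the Rps4x value was not tested.

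Paralogues were set beside their parent genes. Here too levels are sums of allelic values, so a ratio between genes need not equal that of their whole RNA. Rpl22l1, a paralogue of Rpl22 that can replace it in the ribosome, was the higher of the pair in both lines. Rpl22 had 117.8 FPKM (B6-Xi) and 74.9 FPKM (PWK-Xi), Rpl22l1 had 168.4 and 236.9 FPKM, so the paralogue was at 143.0% of its parent in B6-Xi and at 316.4% in PWK-Xi. Rps27l, known as a p53 target, had 1044 and 691.2 FPKM, 73.2% and 80.8% of Rps27. Rpl7l1 stayed at 1.9% and 1.54% of Rpl7. Rpl39l, known from testis, was at 0 for B6-Xi and at 47.4 FPKM for PWK-Xi, all from B6. Its parent Rpl39 is X-linked, while Rpl39l lies on chromosome 16, whose other genes had a median B6 share of 41.2%.

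The last comparison set the total level in PWK-Xi against B6-Xi, as log2((PWK-Xi + 1)/(B6-Xi + 1)) of FPKM. Most ribosomal protein genes were lower in PWK-Xi. Of the 62 genes above 0 in both lines, 54 had a negative difference, against 39.6% of 5241 genes that were above 0 in both lines and reached 5 FPKM in one of them. The median was -0.53 for the family, 0.19 for all genes and -0.09 for 239 other genes with at least 100 FPKM. Mitochondrial ribosomal protein genes had a median of 0.09 over 69 genes. Most differences were modest. At least 2-fold lower were 8 of the 62 genes, against 5.95%, and at least 2-fold higher was 1 (Rpl7a), against 14.1%. Of the 239 other genes with at least 100 FPKM, 56.5% were below 0, 19 were at least 2-fold lower and 13 at least 2-fold higher. The contrasts were thus smaller against genes of high level.

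The small subunit had a median of -0.74 over 25 genes, with 23 below 0, and the large subunit -0.40 over 34 genes, with 29 below 0. The lowest were Rplp2 (2929 and 1012 FPKM, -1.53) and Rpsa, whose protein is also known as a laminin receptor (2046 and 711.6 FPKM, -1.52). Rpl13 followed with 1746 and 655.8 FPKM (-1.41), Rpl14 with 990.0 and 377.9 FPKM (-1.39) and Rps4x with 2077 and 893.2 FPKM (-1.22). Over its active copy alone Rps4x was at -0.58 and not 2-fold lower. Rpl23 and Rps9 were also among the 8. At the other end Rpl7a was at 2.07, though it stayed under 23 FPKM in both lines, Rps29 was at 0.69, Rps6 at 0.50, and Rpl22l1 and Rplp0 at 0.49. With Rpl10, Rpl39l and Rps25 added, which were at 0 in B6-Xi and reached 5 FPKM in PWK-Xi, 4 of 65 were at least 2-fold higher, against 17.8%, and 8 were lower, against 5.83%.

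The differences moved with those of the neighbouring genes. Over 59 autosomal genes, Pearson's correlation with the median difference of the 20 nearest measured genes was 0.57, and 0.71 without Rpl7a. Among 3769 other autosomal genes it was 0.34. Members on the same chromosome share neighbours, so these values describe the pattern only. On chromosome 11, where other genes had a median of -0.21, Rpl19, Rpl23, Rpl23a and Rpl27 lay between -1.09 and -0.75. On chromosome 1, with a median of 0.47, Rpl7, Rpl31 and Rpl37a lay between -0.07 and 0.08, and on chromosome 5, with 0.43, Rpl5, Rpl6, Rpl21 and Rplp0 lay between -0.33 and 0.49. Rps29, on chromosome 12, and Rps6 had neighbours at 0.84 and 0.65. Below the median of their neighbours were 55 of 59 genes, against 50.1% of other autosomal genes, with a median distance of -0.64. The 4 that were not were Rpl7a, Rpl7l1, Rpl22l1 and Rplp0. Here too abundant genes were not set apart among the other autosomal genes.

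**Figure D4:**
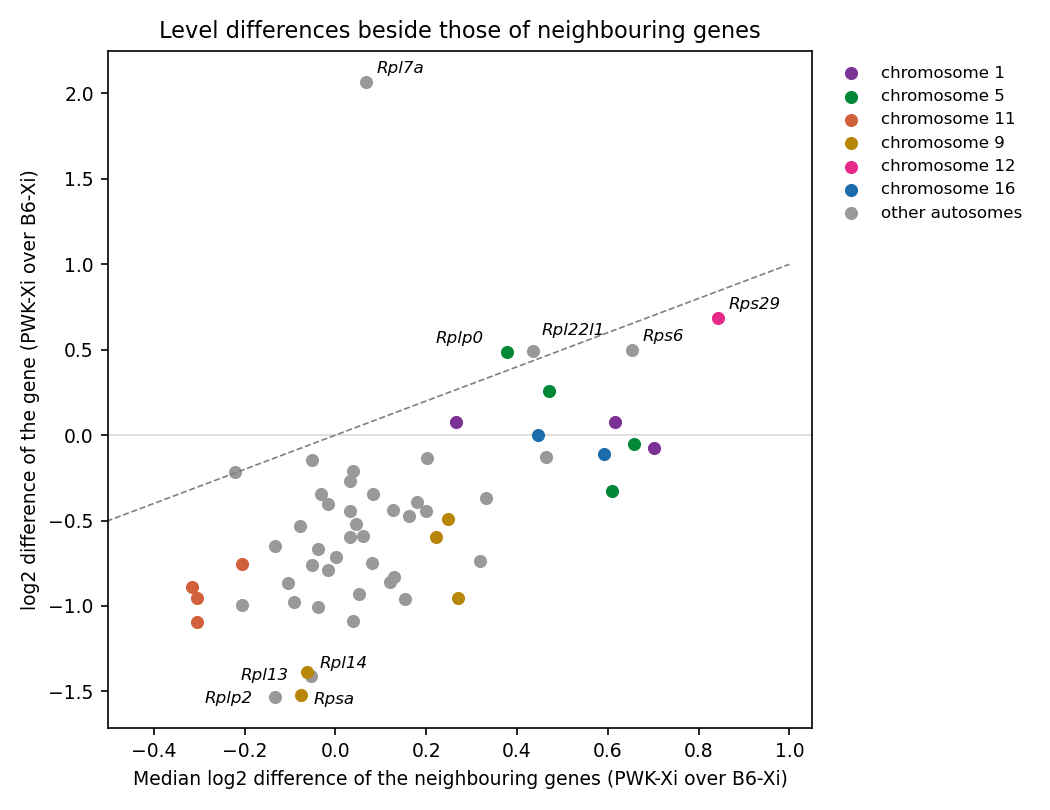
log2 difference of each autosomal ribosomal protein gene (PWK-Xi over B6-Xi) against the median log2 difference of its nearest measured neighbours, coloured by chromosome, with the dashed line marking equal values. The 55 genes under the line have lower values than their neighbours, and genes of chromosomes 1, 5, 12 and 16 lie to the upper right of those of chromosome 11.

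Other genes of the translation pathway were read from lists, counting genes above 0 in both lines that reached 5 FPKM in one of them, for which 39.6% of all genes were below 0, 5.95% at least 2-fold lower and 14.1% at least 2-fold higher. TOP genes outside the family, which encode elongation and initiation factors and partners, showed a median of -0.44, with 13 of 16 below 0 and 2 at least 2-fold lower. Many of them are abundant. The 239 genes outside the family with at least 100 FPKM in both lines had a median of -0.09, with 56.5% below 0. That set includes some of these TOP genes, and the contrast with it is smaller. Eef1a1, the most abundant elongation factor gene, had 3051 and 1878 FPKM, and Gnb2l1, which encodes the ribosome-bound protein Rack1, had 1106 and 570.3 FPKM. The 2 that passed 2-fold were Eef1d (190.0 and 68.9 FPKM) and Eef1g (389.0 and 175.7 FPKM). Fau, whose product releases a small-subunit protein, had 1812 and 806.2 FPKM, more than 2-fold lower as well. Ribosome biogenesis genes, which process ribosomal RNA and assemble subunits, had a median of 0.10 over 20 genes, with 8 below 0, near the share of all genes, and 1, Rrp9, at least 2-fold higher. Gar1, at 0 for B6-Xi but 9.48 FPKM for PWK-Xi, is not in this count. Of 5 measured regulators none passed 2-fold on the scale with the pseudocount of 1 FPKM. The kinase gene Rps6kb1 had 5.68 and 10.3 FPKM, Larp1, which encodes the TOP-binding protein, had 8.52 and 7.08 FPKM, and Myc had 4.93 and 10.1 FPKM, a log2 difference of 0.90 on that scale.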

How the data were processed

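Polyadenylated RNA of 2 lines, 1 library each, was sequenced after Smart-seq2, per the labels' protocols. StringTie 2.1.1, HISAT2 2.2.0 and Trim Galore 0.6.4 are listed in the submitters' processing notes, together with the build mm9. The sources used here do not say how a read received its strain. The authors deposited FPKM per gene for the B6 and the PWK allele, per the file headers. They are not counts, low values gave no common step between the libraries, and depth is unknown.

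The group of each library came from its title. Levels are the sum of both alleles. Shares used no pseudocount and at least 5 FPKM in both lines. Log2 differences used a pseudocount of 1 FPKM, which understates changes of low genes, and at least 5 FPKM in either line. No test was run, since each group had 1 library. Chromosomes and gene order came from RefSeq (GRCm38.p6, a later build than mm9), which gave up to 10 nearest measured genes on each side, without ribosomal protein genes. No coordinates of the files' build were used. All 84 symbols matched. Copies were found with blastn 2.17.0 among GENCODE M21 transcripts. Computations ran in Python 3.11.15 with pandas 2.3.3 and numpy 2.4.6, and figures in matplotlib 3.10.9, after a check of the scripts on simulated data.

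The members, lists and thresholds were chosen with earlier results of these data known. Named were the 8 most abundant genes, those with shares at least 50 points apart or from a single allele in both lines, X-linked genes, genes at 0, paralogues with their parents, genes of chromosome 12 and the 5 largest differences per direction. Genes outside this rule are named for the chromosome, the copy count or the share that the sentence describes, after their values were seen. Alternatives covered the minimum level, the bounds, the pseudocount, the scaling and single chromosomes. Some items are not reported here.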

Additional observations from a re-analysis of the deposited data

How the results depend on the processing

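No paired analysis was possible because each line has 1 library and the lines share a single replicate number. Leaving out chromosomes X and 12 left 4 genes from a single allele in B6-Xi and 1 in PWK-Xi, of 7 and 4 with X-linked genes counted. The other minima and bounds kept these counts within 1.5 times. The median B6 share with X-linked genes was 51.0% in B6-Xi, 51.1% at a minimum of 1 FPKM, 50.3% over the summed FPKM and 51.3% without chromosomes X and 12. In PWK-Xi it was 53.3%, and 54.1% over the summed FPKM and 53.0% without these chromosomes. The median log2 difference of -0.49 over 65 genes was -0.53 for genes above 0 in both lines, -0.34 with no filter on low values, -0.68 relative to the median of all genes and -0.64 relative to neighbouring genes. The last setting was chosen after seeing the data. Genes at least 2-fold lower numbered 8, and 19 relative to the median of all genes, and 0 at 4-fold. Genes at least 2-fold higher numbered 4, and 1 for genes above 0 in both lines and 1 relative to neighbours. Without the 10 most abundant other genes, the family made up 30.9% (B6-Xi) and 21.1% (PWK-Xi) of all FPKM, against 26.1% and 19.0%. The cause of these shifts was not tested. With 1 library per line no value has an error, and the depth behind a share is unknown.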
